A study of Mus musculus with 24 samples.

Results

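Livers of HFepa mice were set against livers of reference mice. HFepa mice were F3 males of a lineage whose growing diet had carried fish oil rich in eicosapentaenoic acid (EPA), an omega 3 fatty acid, through 3 generations; they then received an obesogenic high-fat, high-sucrose diet. Reference mice were F3 males of the oleic lineage, whose growing diet had carried high-oleic sunflower oil instead, and they received a low-fat diet. The arrays titled HFD_O3 (7) and STD_Cont (9) were taken, which makes 16 of the 24 arrays of the series. The other 8, titled HFD_Cont, came from HFoleic mice, which were F3 males of the oleic lineage on the same obesogenic diet, and they are given beside the results. All mice were C57Bl6J males without a genetic alteration, their age is not in the labels, and livers were collected during a fast. No EPA-lineage group on the low-fat diet was analysed here, so diet, lineage and oil differed together between HFepa and reference mice and cannot be told apart.

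The fasted liver makes glucose from amino acids and lactate, and it burns fatty acids. Glucagon and low insulin keep the genes of gluconeogenesis and amino acid breakdown high, whereas insulin raises those of glucose use and fat synthesis. The heat-shock chaperones are a separate system. Hsp70 proteins fold or refold client proteins with the help of Hsp40 partners, which load the client, and Hsp110 proteins, which release the nucleotide; Hsp90 completes the folding of kinases and steroid receptors, and small heat-shock proteins hold unfolded proteins in solution. Heat-shock factor 1 switches many of these genes on together.

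Expression was read as log2 signal of single-colour arrays in a table of 32176 probes, and a difference of 1 on this scale is a 2-fold change. Between 50.9% and 60.8% of all 56605 probes on an array lay well above background. Of the 32176 in the table, 29950 lay well above background in at least 75% of the arrays of 1 or more groups. The hepatocyte markers had a mean log2 signal of 16.50 to 16.74 in HFepa and 16.64 to 16.73 in reference livers, the highest of the 11 cell-type lists. One array stood apart. Reference replicate 5 had a mean correlation of 0.977 with the other reference arrays, against 0.986 to 0.990 for the rest of that group and 0.989 to 0.992 within HFepa. Probes varied more among reference mice, with a median SD of 0.195, than among HFepa mice, with a median SD of 0.163.

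In HFepa livers 51 probes were higher and 59 were lower than in reference livers at an adjusted p under 0.05 (limma with Benjamini-Hochberg adjustment over all probes), or 0.342% of the probes tested. This fit takes its spread from all 24 arrays; with only the 16 arrays of these groups, or by the methods' t-test, no probe passed. The called probes stood for 86 genes with a symbol, of which 41 rose and 45 fell, and for 13 probes without one. The changes were small. The median size was 0.50 on the log2 scale, and 6 probes changed by over 1. In all 110 probes every HFepa mouse lay on the same side of the reference mean, which the choice of these probes by p in these same arrays favours. In 20 of them no HFepa value fell within the range of the reference values, and over all 32176 probes this was so for 36, or 0.112%. The calls lay close to the threshold, with a smallest adjusted p of 0.0265, and they depended on single arrays, as given with the plot of calls after leaving out each array.

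Of the 15 named rises, 3 were heat-shock chaperones. Hspb1, the small heat-shock protein Hsp27, ranged from 13.47 to 14.25 (median 13.94) in HFepa and from 12.71 to 13.50 (median 12.99) in the 8 reference livers with a value, the ninth being blank in the table and left out of this fit. It rose 1.77-fold (log2 difference 0.82 ± 0.17 SE, adjusted p = 0.0315), and 6 of the 7 HFepa values lay above the highest reference value. Dnajb1, an Hsp40 partner of Hsp70, ranged from 12.43 to 13.18 (median 12.87) in HFepa and from 11.39 to 12.53 (median 12.19) in reference livers. Its log2 difference was 0.74 ± 0.13 (SE, adjusted p = 0.0265), and 1 of the 7 HFepa mice fell within the reference range. Hsph1, an Hsp110 protein, ranged from 10.14 to 10.92 (median 10.50) in HFepa and from 9.01 to 10.27 (median 9.79) in reference livers. It rose by 0.73 ± 0.15 on the log2 scale (adjusted p = 0.0385), and 2 of its 3 probes were called.

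Inhbb encodes the beta B subunit that pairs to form activin B. It ranged from 8.51 to 9.39 (median 8.94) in HFepa and from 7.77 to 8.42 (median 7.97) in reference livers, so that the groups did not overlap, and its log2 difference was 0.84 ± 0.17 (SE, adjusted p = 0.031). In HFoleic livers it ranged from 7.92 to 9.08 (median 8.17), which overlapped both other groups. P4ha1, a catalytic subunit of the enzyme that hydroxylates prolines in collagen, ranged from 7.05 to 7.73 in HFepa and from 6.45 to 7.13 in reference livers (log2 difference 0.62 ± 0.11 SE, adjusted p = 0.0265). Stard4, which carries sterols between membranes, ranged from 6.29 to 6.81 in HFepa and from 5.54 to 6.49 in reference livers. This called probe was dim, well above background in 8 of 9 reference arrays. The second and brighter Stard4 probe differed by 0.88 with an adjusted p of 0.0607. Slc5a3, a transporter of sodium and myo-inositol, rose by 0.55 ± 0.12 on the log2 scale and Plekhf1, a protein of endosomes and lysosomes, by 0.59 ± 0.11; Plekhf1 did not overlap between the groups.

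The other named rises were Gbe1, Pcp4l1, Hyou1, Mtss1, Kansl1l, Ints6 and 0610031O16Rik, with log2 differences from 0.55 to 1.06. Ints6, a subunit of the Integrator complex that processes and terminates transcripts, ranged from 9.29 to 9.96 (median 9.65) in HFepa, from 8.61 to 9.41 (median 9.13) in reference and from 8.75 to 9.30 (median 9.10) in HFoleic livers. It was called in 1 of its 4 probes, and 1 of the others had the opposite sign (-0.14). For 0610031O16Rik the second probe also had the opposite sign (-0.29). Kansl1l was called in 2 of its 5 probes, and all 7 HFepa values of the first lay above the reference range.

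**Figure D1:**
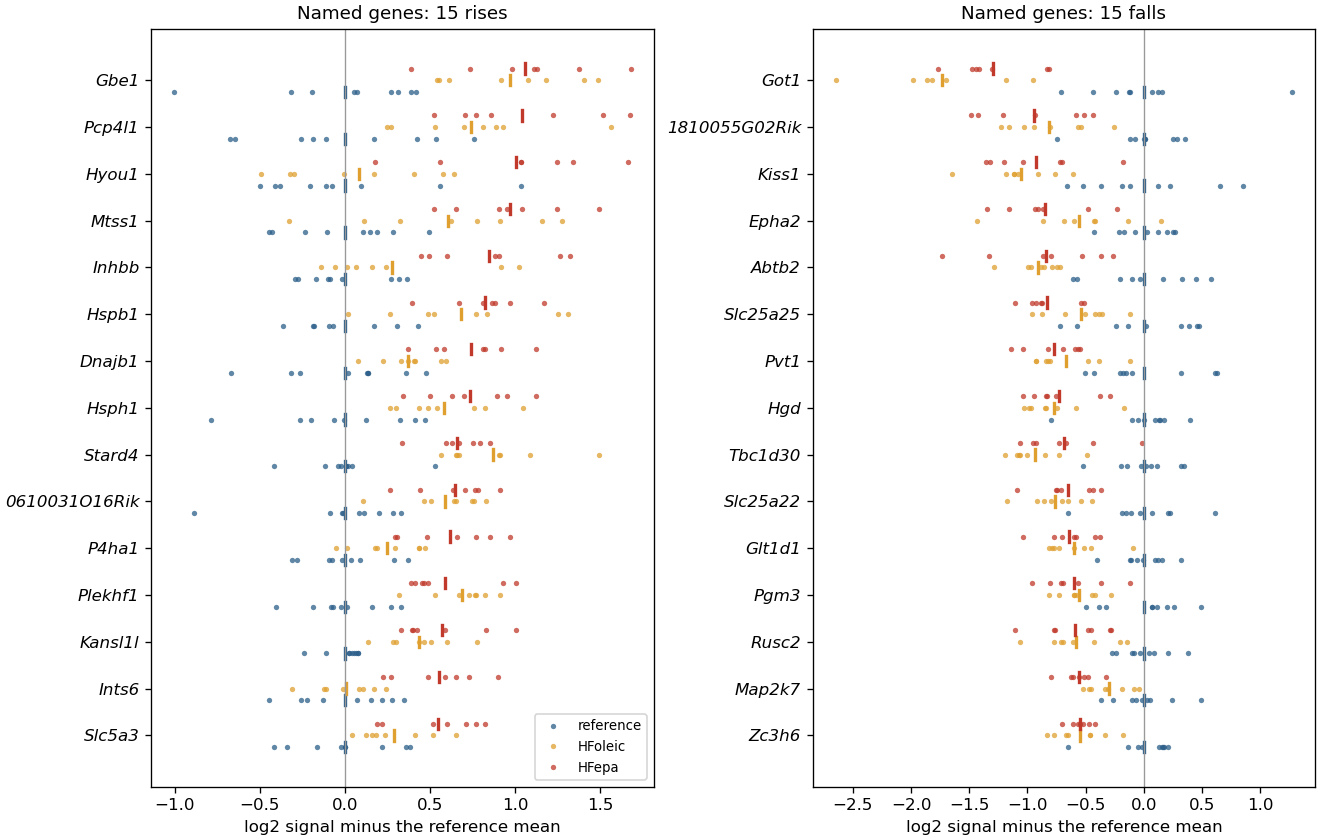
Log2 signal minus the reference mean for the 15 named rises (left) and the 15 named falls (right). Each point is a mouse and each vertical bar is a group mean, with reference mice in blue, HFoleic mice in orange and HFepa mice in red. The HFepa points of every gene lie on 1 side of the reference mean, which the rule that named the genes requires. In 7 of the 30 genes (Mtss1, Inhbb, Plekhf1, Kansl1l, Got1, Pvt1 and Rusc2) the HFepa points do not meet the reference points. Over all 32176 probes this was so for 0.112%, and the 30 genes were chosen among called probes.

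Of the named falls, Got1, the cytosolic aspartate aminotransferase, showed the largest change of all called probes. Its probe with the largest difference ranged from 9.27 to 10.22 (median 9.61) in HFepa and from 10.32 to 12.31 (median 10.91) in reference livers, without overlap. The log2 difference was -1.29 ± 0.24 (SE, adjusted p = 0.0265), and reference replicate 5 gave the highest value. Slc25a25, a mitochondrial carrier of ATP-Mg and phosphate, ranged from 12.32 to 12.91 (median 12.55) in HFepa and from 12.71 to 13.90 (median 13.45) in reference livers. Its log2 difference was -0.83 ± 0.16 (SE, adjusted p = 0.031), and 5 of 7 HFepa values lay below all reference values. Slc25a22, a mitochondrial glutamate carrier, ranged from 11.43 to 12.15 in HFepa and from 11.86 to 13.13 in reference livers (log2 difference -0.65 ± 0.14 SE, adjusted p = 0.0385). Hgd, the homogentisate dioxygenase of tyrosine breakdown, ranged from 9.00 to 9.74 in HFepa and from 9.24 to 10.43 in reference livers. Its called probe differed by -0.72, and its second and brighter probe by -0.35 with an adjusted p of 0.107. Pgm3, an enzyme of the hexosamine pathway, fell by 0.60 on the log2 scale.

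Among the other named falls, Kiss1, the precursor of the peptide hormone kisspeptin, ranged from 8.32 to 9.49 (median 8.64) in HFepa and from 9.01 to 10.53 (median 9.55) in reference livers. Its log2 difference was -0.93 ± 0.20 (SE, adjusted p = 0.0428), and 6 of 7 HFepa values lay below the reference range. Epha2, a receptor tyrosine kinase for ephrins, ranged from 9.44 to 10.56 in HFepa and from 10.36 to 11.05 in reference livers (log2 difference -0.85 ± 0.18 SE, adjusted p = 0.0385). Of the 4 probes of Map2k7, a kinase that activates JNK, 1 was called, and it was dim. It ranged from 5.83 to 6.30 in HFepa, where 5 of 7 arrays were well above background, and from 6.26 to 7.12 in reference livers. The others, annotated to RefSeq mRNAs, differed by -0.41, -0.045 and -0.026 (adjusted p = 0.168, 0.825 and 0.911). Their mean signals in reference livers were 6.89, 11.30 and 10.96. Pvt1, a long non-coding RNA, ranged from 5.91 to 6.51 in HFepa and from 6.55 to 7.68 in reference livers, without overlap. The remaining named falls were 1810055G02Rik (-0.94), Abtb2 (-0.84), Tbc1d30 (-0.68), Glt1d1 (-0.64), Rusc2 (-0.59) and Zc3h6 (-0.55), each as log2 difference. Further probes of several named falls did not pass the test. They differed by -0.16 for Tbc1d30, -0.25 for Glt1d1, -0.54 and -0.021 for Rusc2, -0.38 for Pvt1 and -0.82 for Kiss1. For Slc25a22 they differed by -0.46 and -0.44, and for Pgm3 by -0.57. All 30 named genes kept their sign within each of the 3 slides and within both rows of the slides. The rule that named them, a called difference with every HFepa array on 1 side of the reference mean, favours this outcome. It is therefore no check on a slide or row effect.

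Other called genes changed less and were named after their values were seen. Rbm3, an RNA-binding protein induced by cold, ranged from 9.18 to 9.74 in HFepa and from 9.64 to 10.12 in reference livers (log2 difference -0.47 ± 0.089 SE, adjusted p = 0.0265). Ptpmt1, a mitochondrial phosphatase of cardiolipin synthesis, fell by 0.29, Txn2, the mitochondrial thioredoxin, by 0.34, and Ctsl, the lysosomal protease cathepsin L, by 0.52 on the log2 scale. Flcn (folliculin), which controls mTORC1 and TFEB at the lysosome, rose in both called probes, by up to 0.45. Atg14, a subunit of the lipid kinase that starts autophagy, rose by 0.36, Onecut2, a hepatocyte transcription factor, by 0.34, and Ids, the lysosomal iduronate sulfatase, by 0.33. The ranges of HFepa and reference livers overlapped in Atg14, Onecut2, Ids and Rbm3, and met at the edge in Txn2 and Ptpmt1.

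In 4 of the 5 largest rises 1 of several probes passed the test. The other probes of Gbe1, Hyou1 and Mtss1 lie elsewhere in the gene, and the first bases of each are shown because they show which stretch of transcript reported the rise. Each line gives the first 30 of the 60 bases of a probe in lower case, with the mm9 position that the array annotation gives for the whole probe; the listed span of Hyou1 probe 2 is longer than the probe. Exons and untranslated regions at these positions were not looked up here.

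Gbe1 called probe, chr16:70361835-70361894, + strand: caagaaataagacttcttagcttgtagtct
Gbe1 probe 2, chr16:70569433-70569492, + strand: aagttgcttatgaaggatgtgcttaaaata
Gbe1 probe 3, chr16:70569840-70569899, + strand: tgtccgtatactgtttcagtagacgctgat
Hyou1 called probe, chr9:44193855-44193914, + strand: ttcacaggataccataaaacatttcggaag
Hyou1 probe 2, chr9:44197162-44197329, + strand: aagtggagatgacgacattagagaaagtca
Hyou1 probe 3, chr9:44199084-44199143, + strand: aagagcagtcagcaggacagaagcggcctt
Hyou1 probe 4, chr9:44199354-44199413, + strand: gtttgggaaaaatcactattatgtcttaat
Mtss1 called probe, chr15:58884451-58884510, - strand: atctttaagacatttggtttcaggttgttt
Mtss1 probe 2, chr15:58775008-58775067, - strand: aagacatgttgaacgccatccggaggggcg
Mtss1 probe 3, chr15:58772839-58772898, - strand: tgcagtttttgtttggaacttgtatagata

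Gbe1 encodes the glycogen branching enzyme. Its called probe differed by 1.06 ± 0.20 (log2, SE), the second by 0.20 ± 0.10 and the third, the brightest, by 0.30 ± 0.13, with adjusted p-values of 0.416 and 0.309 for the last 2. The array annotation gives an Ensembl transcript for the called probe and the RefSeq mRNA for the others. The probes of Hyou1, a chaperone of the endoplasmic reticulum, were annotated in the same way. Its called probe differed by 1.01 ± 0.23, at an adjusted p of 0.04999, and with the scanner's background-subtracted signal by 1.77 without passing the test, and the other 3 by 0.054 to 0.21. All Hyou1 probes were dim in reference livers, with mean signals from 6.09 for the called probe to 6.84. The called probe lay well above background in 8 of 9 reference arrays, and it did not pass in 21 of the 24 leave-outs of 1 array. The called Mtss1 probe, annotated to a cDNA clone and on the same strand as the others, differed by 0.97 ± 0.20, and the probes annotated to the RefSeq mRNA of this membrane-bending, actin-binding protein by 0.19 and 0.073. Each of these rises was thus measured at 1 probe, and the probes annotated to the mRNA of the gene did not pass the test. In Pcp4l1, with 2 probes, the called probe differed by 1.04 and the other by 0.17. By contrast, the 3 Got1 probes differed by -1.29, -1.24 and -1.23, although their mean signal in reference livers ran from 11.03 to 14.89, and all 4 Slc25a25 probes were called.

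**Figure D2:**
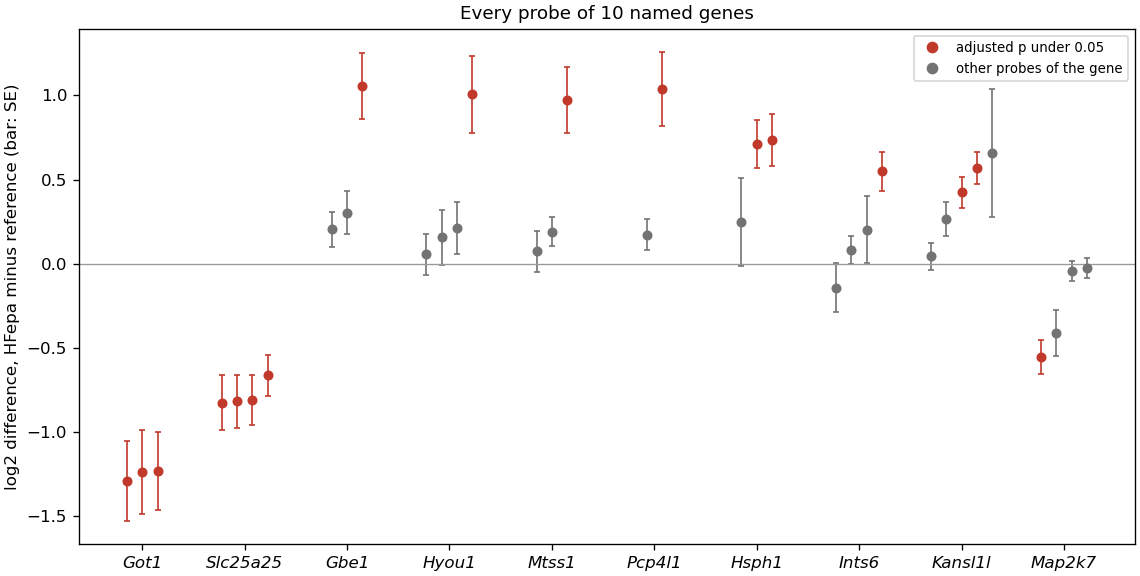
Log2 difference between HFepa and reference livers (bars, SE) for every probe of 10 named genes, with called probes in red and other probes in grey. The 3 probes of Got1 and the 4 of Slc25a25 lie together, whereas 1 probe stands above the others in Gbe1, Hyou1, Mtss1 and Pcp4l1.

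The heat-shock chaperones were then examined as a list of 34 chaperones, partners and factors, most of them cytosolic, all measured and each read from its brightest probe. Of these, 5 rose (Dnajb1, Hsph1, Hspb1, Dnaja1 and Ahsa2) and none fell, where 0.169% of the 15995 genes rose. At an unadjusted p under 0.05, 19 were higher and 0 lower, where 7.42% of all genes were higher. The median log2 difference of the list was 0.22, beside 0.00043 over all genes. The lists, this one included, were chosen with earlier results of these data known. Their counts beside the shares over all genes are therefore no independent evidence. The mean level of the list ran from 11.79 to 12.13 (median 11.93) in HFepa, from 11.35 to 11.85 (median 11.72) in reference and from 11.69 to 11.97 (median 11.84) in HFoleic livers. In 6 of 7 HFepa livers it exceeded the highest reference liver, and reference replicate 5 was the lowest. The list mean was higher in HFepa by 0.49, 0.24 and 0.094 within slides 1, 2 and 3. Without reference replicate 5 the list median was 0.19, and over all leave-outs of 1 array it stayed between 0.19 and 0.25, while the number that rose ran from 0 to 11.

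By role, the called genes were the small heat-shock protein Hspb1, the Hsp40 partners Dnajb1 and Dnaja1, the Hsp110 protein Hsph1 and Ahsa2, related to the activator of Hsp90 ATPase. Dnaja1 ranged from 14.64 to 15.01 in HFepa and from 13.84 to 14.76 in reference livers (log2 difference 0.46 ± 0.095 SE, adjusted p = 0.0323). Ahsa2 ranged from 10.03 to 10.37 in HFepa and from 9.43 to 10.07 in reference livers (log2 difference 0.43 ± 0.091 SE, adjusted p = 0.0385). In both genes the lowest HFepa values fell within the reference range. The members described next were named after their values were seen. The stress-inducible Hsp70 genes Hspa1a and Hspa1b, which are near-identical copies whose probes may share signal, had the largest differences of the list but a wide spread. Hspa1a ranged from 8.26 to 10.30 in HFepa, from 7.21 to 9.58 in reference and from 7.14 to 8.72 in HFoleic livers, and its difference from reference of 1.11 had a 95% confidence interval of 0.41 to 1.80 and an adjusted p of 0.139. The constitutive Hspa8 differed by 0.18 (0.021 to 0.35), and the mitochondrial pair Hspd1 and Hspe1 by -0.0023 (-0.13 to 0.12) and -0.001 (-0.14 to 0.14). Hsf1, the factor itself, differed by 0.067 (-0.058 to 0.19). Ubb, a polyubiquitin gene outside the list that is also heat-inducible, rose by 0.24 ± 0.05 (adjusted p = 0.0385).

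**Figure D3:**
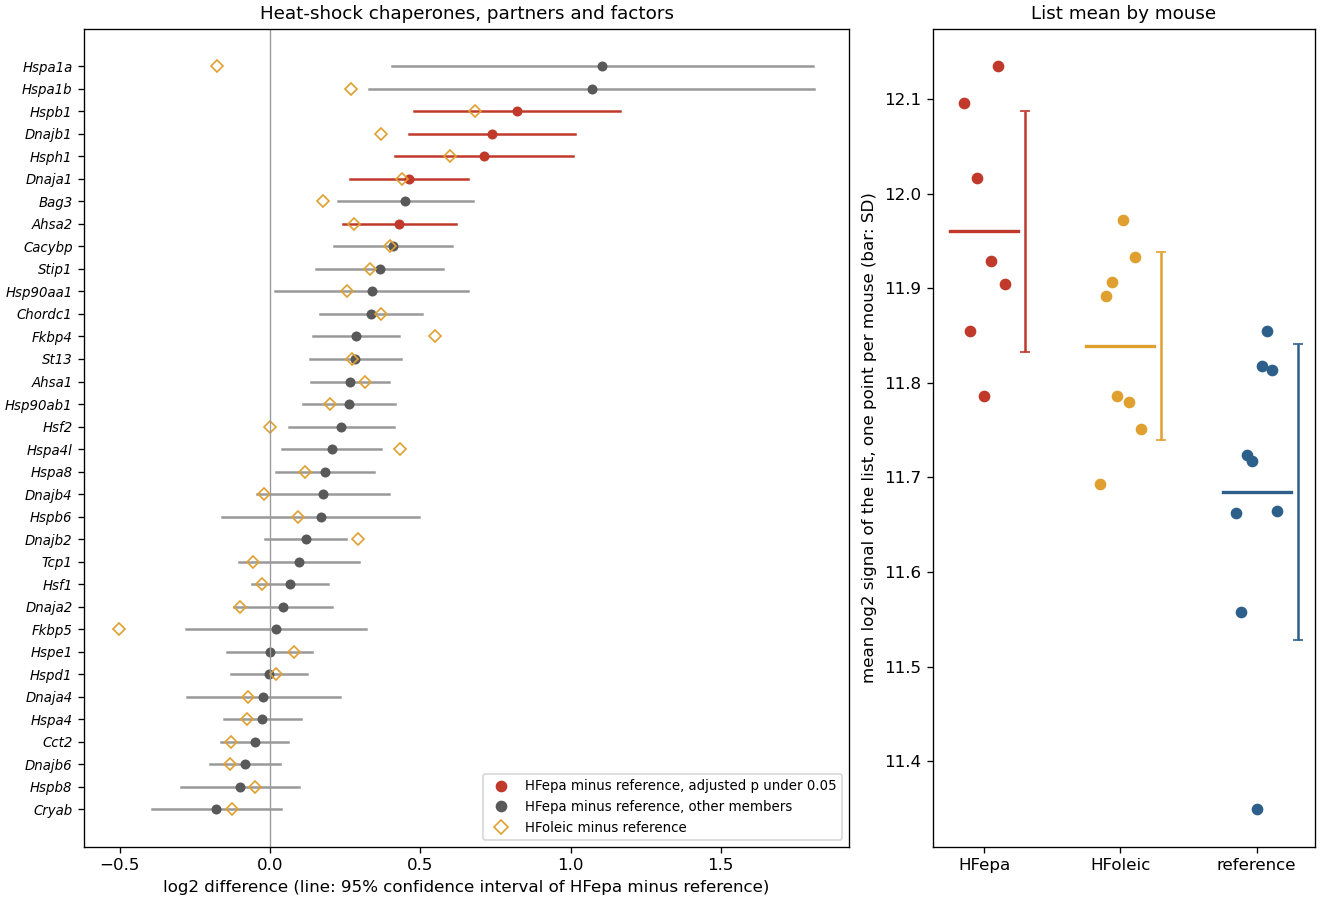
Left, log2 difference from reference of the 34 heat-shock chaperones, partners and factors in HFepa (filled, with the 95% confidence interval as a line, red where the adjusted p was under 0.05) and in HFoleic (open diamonds). Right, mean log2 signal of the list in each mouse with the group mean (horizontal line) and SD (bar beside it); HFepa mice lie from 11.79 to 12.13 and reference mice from 11.35 to 11.85.

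The promoters of the called chaperones are shown because heat-shock factor 1 binds arrays of inverted nGAAn units. RefSeq promoters (GRCm38.p6, 250 bases before to 50 after a start) were searched on both strands for the paired units GAANNTTC and TTCNNGAA, each of which reads the same on both strands. Such a pair was found for Hspb1, Hsph1 and Dnaja1, in 1 or more of the promoters listed for each, and not in those listed for Dnajb1, Ahsa2 and Ubb. It was also found for Inhbb, which rose, and for Got1 and Slc25a25, which fell, and not for Kiss1 and Gbe1. Over all 32851 promoters of this length 15.1% held a pair, and 0.603% held 3 units in a row, so that 2 pairs overlap, as 1 stretch of Hsph1 did. These shares count single promoters, whereas a gene with several promoters has more chances of a match. The pairs are in capitals in the lines that follow, which end 30 bases into the transcript. A match of letters is a description, and binding was not measured.

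Hspb1, GRCm38.p6 chr5:135887669-135887948, + strand: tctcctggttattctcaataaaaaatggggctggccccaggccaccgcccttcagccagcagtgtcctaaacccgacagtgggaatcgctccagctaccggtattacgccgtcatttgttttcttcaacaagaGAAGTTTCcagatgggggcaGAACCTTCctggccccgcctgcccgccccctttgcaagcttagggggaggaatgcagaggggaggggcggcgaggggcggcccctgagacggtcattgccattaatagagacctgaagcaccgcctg
Hsph1, GRCm38.p6 chr5:149636286-149636565, - strand: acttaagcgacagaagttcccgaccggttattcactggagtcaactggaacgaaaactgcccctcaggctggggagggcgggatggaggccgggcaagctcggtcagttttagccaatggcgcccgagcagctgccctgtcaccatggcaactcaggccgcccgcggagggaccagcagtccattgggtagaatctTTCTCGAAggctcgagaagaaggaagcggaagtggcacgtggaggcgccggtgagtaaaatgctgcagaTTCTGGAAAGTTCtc
Dnaja1, GRCm38.p6 chr4:40722218-40722497, + strand: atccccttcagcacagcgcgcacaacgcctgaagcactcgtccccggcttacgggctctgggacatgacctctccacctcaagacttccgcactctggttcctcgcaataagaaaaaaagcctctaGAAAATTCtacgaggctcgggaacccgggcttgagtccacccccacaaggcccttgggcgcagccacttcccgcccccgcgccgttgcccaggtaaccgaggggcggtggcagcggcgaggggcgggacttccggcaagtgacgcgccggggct

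Of 24 genes of gluconeogenesis and the fasting response, 3 fell (Got1, Slc25a25 and Kiss1) and none rose, where 0.206% of all genes fell. At an unadjusted p under 0.05, 12 were lower and 1 was higher, where 7.37% of all genes were lower. The list median was -0.35. This list too was chosen with earlier results known, and its 3 called genes are also named falls, so its counts are no independent evidence. The list mean ran from 12.36 to 12.55 in HFepa and from 12.41 to 13.19 in reference livers, where the lowest was replicate 8 and the highest replicate 5. G6pc, the catalytic subunit of glucose 6-phosphatase, ranged from 14.18 to 14.79 in HFepa and from 14.52 to 15.43 in reference livers, and its log2 difference of -0.52 ± 0.12 (SE) had an adjusted p of 0.0607. Ppargc1a, a coactivator of the fasting programme, differed by -0.62 ± 0.16 at an adjusted p of 0.0749. Pck1, the cytosolic PEP carboxykinase, differed by -0.29 in HFepa and by -0.74 in HFoleic livers. Creb3l3, Cebpb and Pcx, named after their values were seen, differed by 0.021, -0.025 and 0.005. Without reference replicate 5 the median was -0.27, without replicate 8 it was -0.41, and within slides the list mean differed by -0.36, -0.36 and -0.34. Over all leave-outs of 1 array the list median stayed between -0.41 and -0.22, while the number that fell ran from 0 to 8.

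Slc25a25 has 3 RefSeq promoters, of which 1 holds TGACGTCA, the site that CREB, a factor activated by glucagon, binds. This palindrome stood in 1.79% of all promoters, and in none of those listed for Got1 and Kiss1. That share counts single promoters, and a gene with several has more chances of a match. Binding was not measured. The palindrome is in capitals in the line that follows.

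Slc25a25, GRCm38.p6 chr2:32424037-32424316, - strand: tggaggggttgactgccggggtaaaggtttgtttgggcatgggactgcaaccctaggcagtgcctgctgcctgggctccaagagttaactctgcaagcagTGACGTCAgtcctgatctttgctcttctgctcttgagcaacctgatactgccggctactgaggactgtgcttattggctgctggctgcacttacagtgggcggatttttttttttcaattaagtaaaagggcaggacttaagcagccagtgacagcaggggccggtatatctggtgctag

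The list of amino acid breakdown shares Got1 with that list. Of its 39 genes of amino acid catabolism and the urea cycle, 1 (Got1) fell and none rose, 18 were lower and 2 higher at an unadjusted p under 0.05, and the median was -0.20. Over all genes 0.206% fell, and 7.37% were lower and 7.42% higher at an unadjusted p under 0.05. Cth, which makes cysteine from cystathionine, differed by -0.64 ± 0.15 (adjusted p = 0.0605), and Gpt2, the mitochondrial alanine aminotransferase, by -0.56 ± 0.15 (adjusted p = 0.0868). Among 31 mitochondrial carriers of the Slc25 family, Slc25a25 and Slc25a22 fell, where 0.206% of all genes did, and the median was -0.055.

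Few lipid genes passed the test. None of 26 measured genes of cholesterol synthesis and SREBP2 targets passed the test by its brightest probe, but 12 were higher and none lower at an unadjusted p under 0.05, where 7.42% and 7.37% of all genes were, with a median of 0.36. Insig1, which retains SREBP in the endoplasmic reticulum, ranged from 7.95 to 9.06 in HFepa and from 7.00 to 8.30 in reference livers (log2 difference 0.92 ± 0.22 SE, adjusted p = 0.0605). Hmgcs1, the synthase of HMG-CoA, differed by 0.69, with an adjusted p of 0.114. In HFoleic livers 17 of the 26 rose, where 4.94% of all genes did, with a median of 0.84. In fatty acid synthesis, Mlxipl (ChREBP, the glucose-responsive factor) rose by 0.44 ± 0.10 (adjusted p = 0.04999), while Scd1, the stearoyl-CoA desaturase, differed by -0.51 and Elovl6, an elongase, by -0.43, with adjusted p-values of 0.283 and 0.305. None of the 13 genes of polyunsaturated fatty acid desaturation and elongation had an unadjusted p under 0.05; Elovl5 differed by -0.22 (-0.46 to 0.015, 95% confidence interval) and Fads2 by -0.18 (-0.41 to 0.055). In triglyceride synthesis and lipid droplets, Agpat6, an acyltransferase of glycerolipid synthesis, fell, from 14.13 to 14.71 in reference to 13.87 to 14.36 in HFepa livers (log2 difference -0.37 ± 0.081 SE, adjusted p = 0.0428). Pnpla2, the first lipase of stored triglyceride, differed by -0.40 (adjusted p = 0.0925). Of 34 genes of fatty acid oxidation none passed, and the median was 0.036.

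Among the remaining lists, Inhbb was the called gene of the 17 measured activin and inhibin genes, where the antagonist Fst differed by -0.86 ± 0.25 (adjusted p = 0.12), and Sdc1, a heparan sulfate proteoglycan that clears lipoproteins, fell by 0.54 (adjusted p = 0.031) among 20 genes of that role. Over all genes 0.169% rose and 0.206% fell. Each read from its brightest probe, which for Gbe1 and Hyou1 is not the called one, no member passed in the lists of glycolysis, glycogen metabolism, insulin signalling, ATF4 targets, ER chaperones, bile acids, cytochromes P450, NRF2 targets, either clock phase, immediate early genes, glucocorticoid-responsive genes, histones, growth hormone genes, inflammation, extracellular matrix, respiratory chain or proteasome. Of 21 measured genes of replication-dependent histones, which package newly made DNA and whose transcripts mostly lack a poly(A) tail, 12 were higher and 2 lower at an unadjusted p under 0.05, where 7.42% and 7.37% of all genes were, with a median of 0.27 in HFepa and 0.29 in HFoleic livers; Hist1h2ab differed by 0.63 (adjusted p = 0.125), and near-identical copies may share probes. Of 35 ER chaperones 4 were higher by that measure, where 7.42% of all genes were; among them was Herpud1, a protein of ER-associated degradation (0.64 ± 0.17, adjusted p = 0.0916), and the median was 0.15 in HFepa and 0.48 in HFoleic livers. Of 24 genes of bile acid synthesis and transport 7 were higher and 1 lower, where 7.42% and 7.37% of all genes were; Abcb11, the bile salt export pump, differed by 0.29 and Slco1a4, an organic anion carrier named after its values were seen, by -0.80 (adjusted p = 0.235 and 0.292). In 34 genes of the respiratory chain the differences ran from -0.059 to 0.11. Of 25 immediate early genes 3 were higher and 4 lower at an unadjusted p under 0.05, where 7.42% and 7.37% of all genes were, and the median was 0.0054. Dusp6, a phosphatase that inactivates ERK, differed by 0.54 and Junb, an AP-1 subunit, by -0.41 (adjusted p = 0.112 and 0.152). Klf2 and Klf4, zinc-finger factors, differed from reference by 0.56 and 0.54 in HFepa (adjusted p = 0.0548 and 0.152) and by -0.061 and -0.40 in HFoleic livers.

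**Figure D4:**
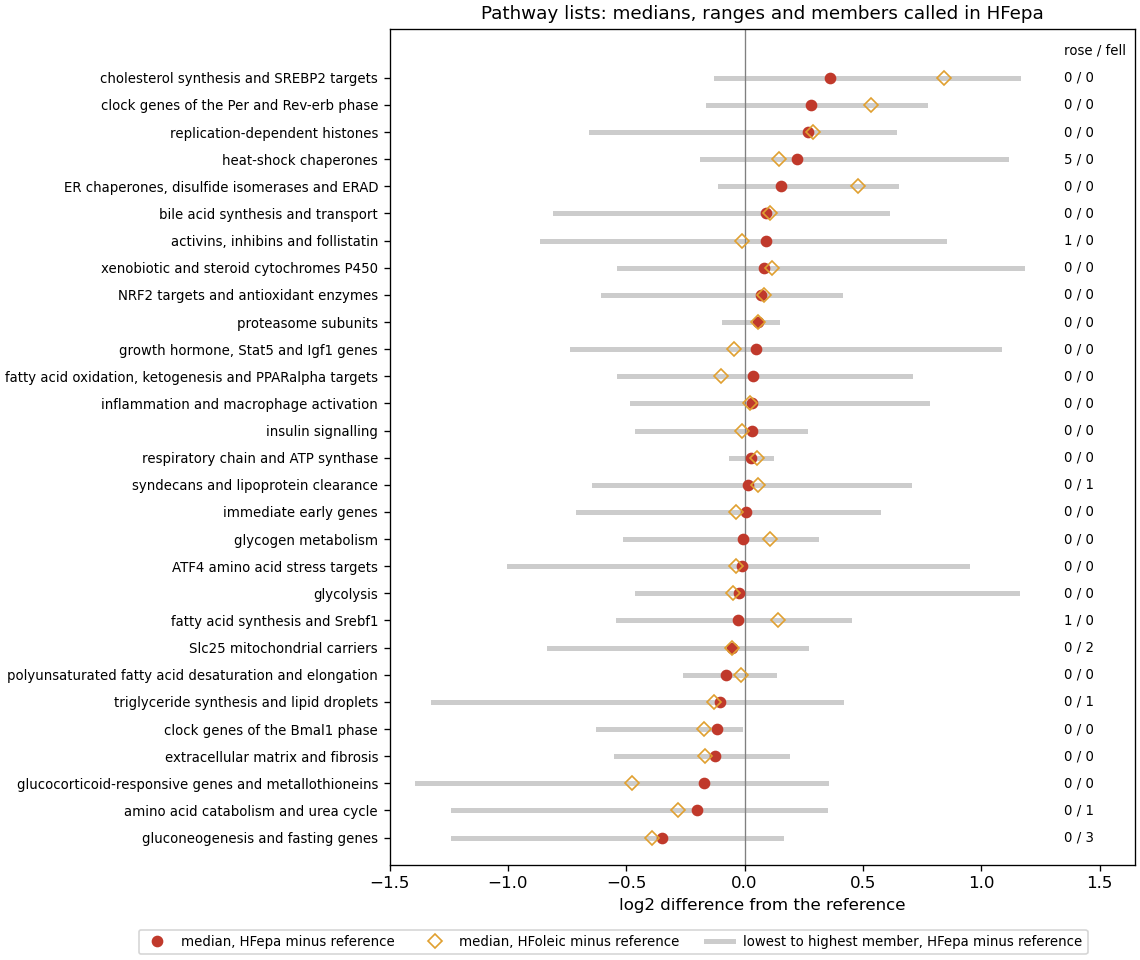
Median log2 difference from reference over the measured members of 29 pathway lists in HFepa (red) and HFoleic (open diamonds), with the lowest to highest member in HFepa as a grey bar and the number of members that rose and fell in HFepa at the right. HFepa medians run from -0.35 for gluconeogenesis and fasting genes to 0.36 for cholesterol synthesis.

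A panel of 16 genes was also measured by RT-qPCR, and it is read here from the arrays. It was chosen on these mice, so its counts are no independent evidence of direction. In HFepa livers 3 rose (Dnajb1, Hspb1 and Mlxipl) and 2 fell (Sdc1 and Agpat6), where 0.169% of all genes rose and 0.206% fell. Irs2, an insulin receptor substrate, differed by -0.46 ± 0.21 in HFepa and -1.16 in HFoleic livers, Cpt1a, which admits fatty acids to mitochondria, by -0.30 and -0.43, Srebf1, the lipogenic factor, by 0.41 and 1.02, and Xbp1, a factor of the unfolded protein response, by 0.15 and 0.67. Angptl4, an inhibitor of lipoprotein lipase, differed by 0.13 and -0.45, Gfpt1, the entry enzyme of the hexosamine pathway, by -0.044 and 0.44, and Foxo1, a factor of gluconeogenesis, by 0.053 and -0.12. None of these 7 had an adjusted p under 0.05 in HFepa.

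HFoleic mice shared the diet but not the lineage of HFepa mice, and both groups were set against the same reference mice. The log2 difference from reference was -1.29 in HFepa and -1.73 in HFoleic livers for Got1, -0.93 and -1.05 for Kiss1, and -0.83 and -0.54 for Slc25a25. It was 0.82 and 0.68 for Hspb1, 0.74 and 0.37 for Dnajb1, 0.66 and 0.87 for Stard4, and 0.62 and 0.24 for P4ha1. Tested directly, no probe differed between HFepa and HFoleic livers at an adjusted p under 0.05 by limma (smallest 0.0558); 2969 probes, or 9.23%, had an unadjusted p under 0.05. Leaving out 1 array gave 0 to 12 probes at an adjusted p under 0.05, the 12 without HFepa replicate 5 and 5 without HFoleic replicate 5. The intervals were wide. Ints6 was 0.55 higher in HFepa than in HFoleic livers (95% confidence interval 0.30 to 0.79, adjusted p = 0.122), the called Hyou1 probe 0.92 higher (0.44 to 1.40, adjusted p = 0.196) and Inhbb 0.57 higher (0.21 to 0.92, adjusted p = 0.274). The other 3 Hyou1 probes, all annotated to the RefSeq mRNA, differed the other way, by -0.43, -0.58 and -0.43, with adjusted p-values of 0.245, 0.262 and 0.392. Hspb1 differed by 0.14 (-0.20 to 0.48), Got1 by 0.44 (-0.078 to 0.96) and Gbe1 by 0.085 (-0.34 to 0.51). In the ER chaperone list 24 of 35 genes were lower in HFepa than in HFoleic livers at an unadjusted p under 0.05, where 6.33% of all genes were, and none passed the adjustment.

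No member of the 11 cell-type lists passed the test between HFepa and reference livers. In a bulk liver, fewer cells of a type and less RNA per cell cannot be told apart. At an unadjusted p under 0.05, 4 sinusoidal endothelial and 3 stellate cell markers were higher and none lower, where 7.42% and 7.37% of all genes were. By that measure 1 hepatocyte marker was higher and 2 were lower, 1 cholangiocyte marker was lower, and the other lists held none. The mean of the 12 Kupffer cell markers ran from 10.50 to 11.31 in HFepa and from 10.02 to 11.13 in reference livers (list median 0.25), that of 11 sinusoidal endothelial markers from 9.80 to 10.13 and from 9.69 to 10.03 (median 0.16). The 11 stellate cell markers ran from 9.24 to 9.79 and from 9.03 to 10.54 (median 0.084), the 9 cholangiocyte markers from 7.26 to 7.64 and from 7.15 to 8.70 (median -0.052), and the 7 red blood cell markers from 11.94 to 13.11 and from 12.41 to 13.39 (median -0.27). The 8 neutrophil markers had a median of 0.11, the 8 lymphocyte markers -0.013, the 9 adipocyte markers -0.20, the 5 exocrine pancreas markers 0.079 and the 5 skeletal muscle markers -0.012. Skeletal muscle markers reached 8.46 in reference replicate 3, and cholangiocyte markers 8.70 in reference replicate 5. Their part in the results was not tested.

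**Figure D5:**
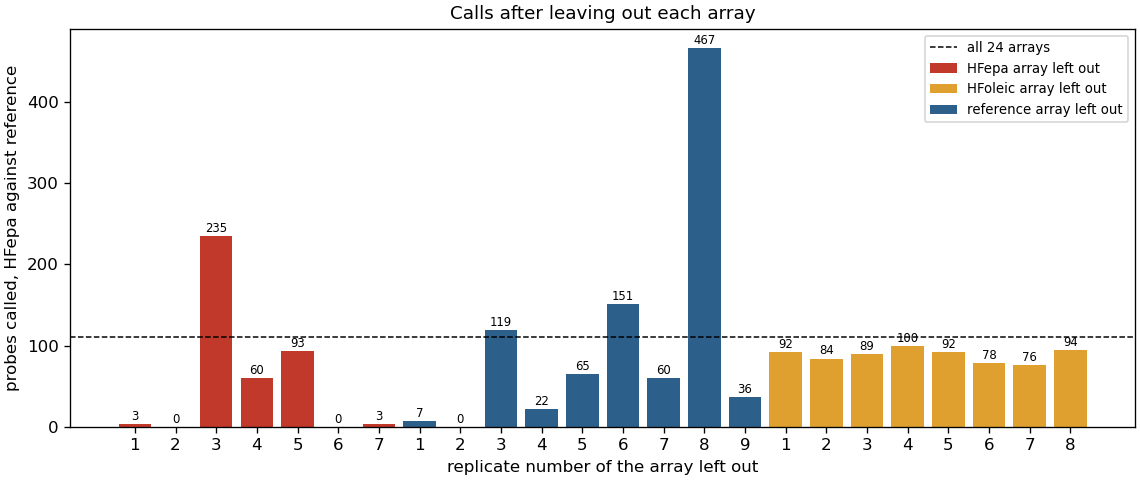
Number of probes called between HFepa and reference livers after leaving out each of the 24 arrays (bars, coloured by the group of the array; dashed line, all arrays). The count runs from 0 without HFepa replicate 2 or 6 or reference replicate 2 to 467 without reference replicate 8, and lies between 76 and 100 when an HFoleic array is left out.

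No call held in all 24 leave-outs. There were 3 calls without HFepa replicate 1 or 7, 7 without reference replicate 1, 22 without replicate 4, 36 without replicate 9, 60 without HFepa replicate 4 or reference replicate 7 and 65 without replicate 5, against 151 without reference replicate 6 and 235 without HFepa replicate 3. In each of these fits all 110 probes kept their sign, which is no independent evidence because they were chosen on these same arrays. Estimated from the 16 arrays alone, no probe passed by limma (3573 at an unadjusted p under 0.05, against 4149 with all 24 arrays), nor did one by the methods' t-test after adjustment.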

How the data were processed

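Liver RNA of 24 male F3 mice (7 HFepa, 8 HFoleic and 9 reference) was labelled with Cy3 and hybridised to 24 single-colour Agilent mouse arrays on 3 slides. The authors extracted signals with Agilent Feature Extraction 10.10.1.1 and normalized them with limma by quantiles; their deposited table holds log2 values of 32176 probes, with 2550 empty cells. These log2 values were used as deposited. The deposited scanner intensity (median signal, background and processed signal) gave gene names, detection calls and alternatives, and log2 of the median signal correlated with the table at 0.9997 or above in every array. Groups came from the labels, whose replicate numbers name separate samples, so the p-values measure the spread between these samples.

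Group means were fitted over all 24 arrays with lmFit and eBayes of limma 3.58.1 (R 4.3.3), with Benjamini-Hochberg adjustment over all probes and a threshold of 0.05. Blank cells were left out of the fit of their probe. All 3 groups share 1 estimate of the spread. The number of arrays limits the precision. Probe coordinates are those of the array annotation (mm9), and promoters are from RefSeq (GRCm38.p6); 15995 of 21471 gene names matched RefSeq, and each such gene was read from its brightest probe in lists and gene counts.

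Named genes were the 15 rises and 15 falls with the largest differences among called probes, 1 probe a gene, with every HFepa array on 1 side of the reference mean; in each list, the called members and up to 4 with the smallest p; and the RT-qPCR panel. A few genes that this rule names are not reported here. The members, lists and tests were chosen with earlier results of these data known. Alternatives changed the samples fitted, the test (limma with a trend, and the methods' t-test), the filter on dim probes, the background correction and normalization, the block (slide, slide row or replicate number), and left out each array in turn.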

Additional observations from a re-analysis of the deposited data

Results flagged for a closer look

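Among the named genes with the largest changes and the list means, 140 groups of 7 to 9 mice were examined for a mouse far from the others, and 14 held one; chance marks about 1 in 20 groups. In the reference group, replicate 8 gave the highest Stard4 (6.49) and the lowest 1810055G02Rik (10.55, next 11.18), Hgd (9.24, next 9.93) and Zc3h6 (7.91, next 8.43), each as log2 signal. Its values of these 4 genes lie on the side of the HFepa mice. Reference replicate 5 gave the lowest 0610031O16Rik (7.45, next 8.25) and the highest Got1 (12.31, next 11.19), on the side away from the HFepa mice.

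In mean level of a list, reference replicate 5 was lowest in cholesterol synthesis (10.08, next 10.44) and growth hormone genes (11.70, next 12.35), and highest in NRF2 targets (13.63, next 13.28) and cholangiocyte markers (8.70, next 7.69). Reference replicate 4 was highest in fatty acid synthesis (12.65, next 12.16) and reference replicate 3 in skeletal muscle markers (8.46, next 6.61). In HFepa, replicate 4 was highest in inflammation genes (11.11, next 10.50) and replicate 7 lowest in red blood cell markers (11.94, next 12.62).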

How the results depend on the processing

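The number of probes called between HFepa and reference livers was 110. It was 0 with only the 16 arrays of the 2 groups, 0 by the methods' t-test after adjustment (3557 at an unadjusted p under 0.05), 0 from the scanner's median signal with no filter on dim probes (4845 unadjusted) and 60 from the processed signal scaled to the 75th percentile, 56 of them among the 110. It was 101 to 120 in the other alternatives but the replicate block, and the cause of these differences was not tested. Leaving out 1 array gave 0 to 467 calls for HFepa against reference, 0 to 12 for HFepa against HFoleic and 1558 to 2955 for HFoleic against reference. HFepa against HFoleic had 2 calls with an intensity trend and robust prior and 0 in the other alternatives with all arrays. All 110 probes kept their direction under every alternative in which they were tested. They were chosen for their difference in these same arrays, so this is no independent evidence of direction. Of the 110, 9 had an empty cell and were not tested among probes with all values.

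The replicate numbers do not pair the mice. Deviations of same-numbered HFepa and reference mice correlated from -0.062 to 0.34, and 1 of 7 mice correlated best with its own number. With the replicate block 84 probes were called, 55 of them among the 110, and G6pc and Akr1c6 passed.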
